A study of Arabidopsis thaliana with 59 samples.

Results

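The comparison described here sets the ago1-45 allele against the ago1-27 allele of ARGONAUTE1 in Arabidopsis thaliana plants that also carry ein5-1 and dcl4-2, and it reads the 22-nt small RNA over every annotated gene. Its members are the genes at 5 units or more in the mean of either genotype, and 6549 of the 32375 genes with a value are members. A level of 5 units or more was reached by 4952 genes in ago1-45 and by 5299 in ago1-27, of which 3702 reached it in both, 1250 in ago1-45 alone and 1597 in ago1-27 alone. The genotypes compared are ein5-1 dcl4-2 ago1-45 and ein5-1 dcl4-2 ago1-27, with 4 libraries each, and they share the ein5-1 and dcl4-2 mutations with the ein5-1 dcl4-2 parent, which serves here as a reference with an unmutated AGO1. In all 15 genotypes of the series the aerial parts of untreated plants were taken at 20 days of age, the plants having spent 6 days on MS plates before 14 days in soil. The labels give 1 line for each allele and do not say how many plants went into a library. Since the members were chosen by level in the genotypes compared, the counts below describe them and are not evidence that these genes differ more often than others.

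Plants cut long double-stranded RNA into small interfering RNAs with Dicer-like enzymes. DCL4 makes the 21-nt class, and DCL2 makes a 22-nt class that becomes prominent when DCL4 is missing. EIN5 (XRN4) digests decapped mRNA in the cytoplasm, starting from the 5′ end, and when it is lost along with DCL4, DCL2 turns many mRNAs into 22-nt siRNAs. AGO1 binds microRNAs and many siRNAs, cuts or represses their targets, and with a 22-nt guide it can recruit the RNA-dependent RNA polymerase that amplifies siRNAs. Null ago1 alleles are very severe, so weak alleles such as ago1-27 and ago1-45 are used to lower AGO1 activity in living plants.

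The microRNA loci differed in direction, and mature sequences of some of them are shown to identify them. Loci that share a mature sequence did not always have the same fold, and whether seed or family plays a part was not tested. MIR166b, at a log2 fold of -1.39, has the same miR166 sequence as MIR166a and MIR166c, at -0.05 and 0.27. Of these loci only MIR166b was called by limma. Most forms shown are 21 nt long, so the 22-nt reads counted there are not these forms. Letters come from RefSeq annotation of TAIR10.1, are written 5′ to 3′, and have the seed, bases 2 to 8, in capitals. The first 3 come from loci with more 22-nt RNA in ago1-45, and miR169d shares its sequence with miR169e and the 5p strands of miR169f and miR169g. The next 5 come from loci with less in ago1-45, of which miR395a and miR395c share a seed. The last 4 come from loci that were lower in the mean of ago1-45 without a test. The 4 target sites after them are the miR393 sites of the auxin receptor genes, which rose while MIR393b fell. In the sites, capitals mark bases that form no Watson-Crick pair with miR393, a G facing a U included, and each site lies in a coding exon.
ath-miR169d: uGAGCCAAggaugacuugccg
ath-miR858a: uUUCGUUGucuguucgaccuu
ath-miR168a-5p: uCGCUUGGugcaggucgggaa
ath-miR395a: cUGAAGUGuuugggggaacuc
ath-miR395c: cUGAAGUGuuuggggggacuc
ath-miR393b-5p: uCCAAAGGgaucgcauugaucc
ath-miR157a-5p: uUGACAGAagauagagagcac
ath-miR172b-3p: aGAAUCUUgaugaugcugcau
ath-miR850: uAAGAUCCggacuacaacaaag
ath-miR162b-5p: uGGAGGCAgcgguucaucgauc
ath-miR161.1: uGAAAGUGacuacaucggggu
ath-miR161.2: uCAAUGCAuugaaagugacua
TIR1 site: gAGAcaatgcgatccctttgga
AFB1 site: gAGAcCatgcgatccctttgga
AFB2 site: gAaAcaatgcgatccctttgga
AFB3 site: gAaAcaatgcgatccctttgga

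In TAIR10.1 the miR169d sequence lies at chr1:20039556-20039576 on the minus strand, miR858a at chr1:26773695-26773715 on the minus strand and miR168a-5p at chr4:10578652-10578672 on the plus strand. Among the lower families, miR395a lies at chr1:9363206-9363226 on the minus strand, miR395c at chr1:9367149-9367169 on the plus strand and miR393b-5p at chr3:20691657-20691678 on the plus strand. The site of TIR1 is chr3:23273727-23273748 on the minus strand and that of AFB2 is chr3:9870237-9870258 on the plus strand. The AFB1 site, at chr4:1405341-1405362 on the minus strand, has 4 bases without a Watson-Crick pair with miR393, against 3 in TIR1 and 2 each in AFB2 and AFB3.

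Values are 22-nt reads per gene in units scaled by the authors, whose denominator is not given. The deposited table holds the mean of each genotype, and values of single libraries were recovered from the means for 6532 of the 6549 members. The other 17 are the loci of highest value, GTE7, GTE2 and GAE6 among them, so they have means and no test. A library holds 144767 to 225545 recovered reads in ago1-27 and 150756 to 177491 in ago1-45, and 1 read is worth 0.595 to 1.06 units. Libraries are named A to D within a genotype by this worth, and these names are not the labels' replicate numbers.

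Before any result, the libraries themselves differ in spread. The 4 ago1-45 libraries are very alike, with a chi-square per gene of 1.17 to 1.44 between pairs, where sampling alone gives about 1. Each pair still differs beyond counting error, with a largest p of 2.2e-09, so none is another deposited again. That comparison covers counting error only and does not show that they come from separate plants. The ago1-27 libraries differ more, with 2.98 to 4.23 per gene, and at some siRNA loci libraries A and D stand far from B and C. Whether the libraries come from separate plants or pools is not stated, so p-values measure the spread between these libraries, which may be technical. If the 4 ago1-45 libraries were technical repeats, the p-values here would be too small, and counts with their mean taken as 1 sample are therefore given beside the main ones.

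By limma on log2(units + 1), with Benjamini-Hochberg adjustment over the 15928 genes tested and a threshold of 0.05, 892 members were higher in ago1-45 and 1950 were lower. Over all genes tested, 6.54% were called higher and 13.6% lower, 20.1% in either direction. In 2662 of the 6532 members the ago1-45 and ago1-27 libraries did not overlap, against 21% of all genes tested, a difference that the choice of members by level favours. By the ratio of the means with 1 unit added, 716 members were 2-fold or more higher and 1889 were 2-fold or more lower, against 5.27% and 9.02% of all genes. The direction of the whole depends on the scale: the median log2 fold of the members was -0.18 on the authors' scale, -0.05 with quantile normalization and 0.23 when libraries were scaled to their microRNA loci, and the counts became 1220 higher with 1579 lower and 1824 higher with 889 lower. When the mean of the 4 alike ago1-45 libraries was taken as 1 sample, 33 members were higher and 144 lower. Without limma's intensity trend the counts were 273 and 1025. Without libraries A and D of ago1-27 they were 604 and 1146, and without B and C they were 767 and 1307.

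**Figure D1:**
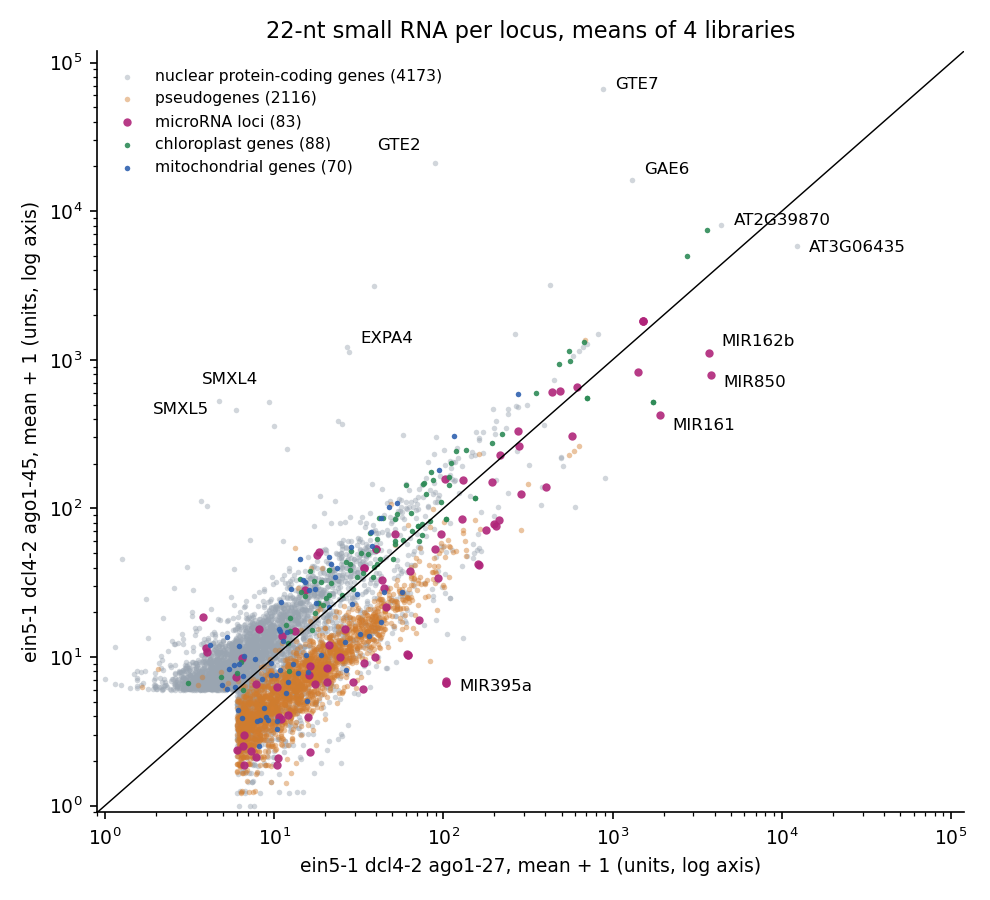
Mean 22-nt value of each member in ein5-1 dcl4-2 ago1-27 (x) and ein5-1 dcl4-2 ago1-45 (y), both in units with 1 added and on log axes. Colours mark the class of locus and the line marks equal values. GTE7, GTE2 and GAE6 lie far above the line, at 66640, 21150 and 16090 units in ago1-45, and most pseudogenes and MIR395a lie under it.

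The greatest amounts of 22-nt RNA in ago1-45 came from 3 protein-coding genes that are siRNA sources in ein5-1 dcl4-2. GTE7 and GTE2 encode bromodomain proteins of the global transcription factor group E, and GAE6 encodes a UDP-glucuronate epimerase that makes a precursor of pectin. The authors' mean of GTE7 was 66640 units in ago1-45 and 877 in ago1-27, against 92710 in ein5-1 dcl4-2 and 6.72 when dcl2-1 was added to it. GTE2 had 21150 units in ago1-45 and 88.2 in ago1-27, against 50410 in ein5-1 dcl4-2. At GAE6 the authors' means were 16090 and 1295 units, against 26730 in ein5-1 dcl4-2. In ago1-45 these loci thus kept 71.9%, 41.9% and 60.2% of the ein5-1 dcl4-2 mean, and in ago1-27 they kept 0.946%, 0.175% and 4.84%. Together they made up 35.9% of the summed means in ago1-45 and 1.2% in ago1-27.

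Library values were recovered for GTE2 and GAE6 in ago1-27 alone, and for GTE7 in neither. GTE2 had 9.51, 14.4, 317 and 11.6 units in libraries A to D of ago1-27, so its mean rests on library C. GAE6 had 803, 1433, 2248 and 696 units there, with every library far under the ago1-45 mean. GTE7 lies at chr5:26225832-26229574 on the minus strand and overlaps AT5G65620 by 72 bases. GTE2, at chr5:3332995-3334913 on the minus strand, lies inside the span of AT5G10540 on the other strand, a metalloprotease gene with 3149 units in ago1-45 and 37.7 in ago1-27. Whether the counting used strand is not given in the sources used here, so reads of GTE2 and AT5G10540 cannot be told apart. Because these loci take so large a share of ago1-45, the sum of means over all genes was 289411 units there and 188034 in ago1-27. Over the genes with library values the sums were 143284 to 144583 units per library in ago1-45 and 133173 to 157418 in ago1-27, with p = 0.857 in an exact two-sided permutation test.

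Of the loci whose 22-nt RNA in ein5-1 dcl4-2 needs DCL2, taken as 50 units or more there and at least 8-fold more than with dcl2-1 added, 307 are members. Among the 301 tested, 114 were higher in ago1-45 and 35 lower, with a median log2 fold of 0.53 against -0.18 for all members tested. Protein-coding members that are not DCL2-dependent lay closer. By the ratio of the means with 1 unit added, their median log2 fold was 0.43, against 0.53 for the DCL2-dependent members. By that ratio 15.3% of these coding members and 29% of the DCL2-dependent ones were 2-fold or more higher. At 2-fold or more lower the shares were 13.2% and 9.45%. The counts of DCL2-dependent members called higher and lower were 136 and 26 with quantile normalization and 163 and 12 on the microRNA scale. Without the intensity trend they were 57 and 11, and with ago1-45 counted as 1 sample 21 and 3. Little of this RNA was left with either allele: the summed means went from 1568000 units in ein5-1 dcl4-2 to 134100 in ago1-45, or 8.55%, and to 15080 in ago1-27, or 0.962%. The median locus kept 9.57% in ago1-45 and 6.56% in ago1-27, and 46 and 73 loci kept under 1%. Such loci number 388 over all genes, and those under the member threshold with both alleles are left out of these figures. The median and the counts under 1% thus depend in part on how members were chosen. Over all 388 loci the summed means were 1673000 units in ein5-1 dcl4-2, 134300 in ago1-45 and 15220 in ago1-27. Among the 84 loci with 1000 units or more in ein5-1 dcl4-2, 73 had a higher mean in ago1-45, 11 of them by 10-fold or more. Of these 84 loci, 12 kept over 10% in ago1-45 and 3 did so in ago1-27.

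Retention was very uneven between these loci. NIA1 and NIA2 encode the nitrate reductases and had the highest values of ein5-1 dcl4-2, 393900 and 374800 units. In the libraries A to D, NIA1 had 34.8, 34.0, 39.0 and 27.5 units in ago1-45 and 24.97, 20.1, 37.4 and 29.6 in ago1-27, and the alleles overlap. Its log2 fold was 0.29 ± 0.26 (SE; limma adjusted p = 0.459), and NIA2, at means of 56.5 and 39.0 units, had 0.52 ± 0.23 (limma adjusted p = 0.103). By contrast AT2G39870, a gene of no described function in RefSeq, kept 86.3% in ago1-45 and 47.2% in ago1-27, at means of 8022 and 4391 units. DGAT3, a diacylglycerol acyltransferase gene, fell from 67390 units to 78.6 in ago1-45 and 20.7 in ago1-27. Its libraries did not overlap between alleles, and the log2 fold was 1.91 ± 0.24 (limma adjusted p = 7.14e-10). CYP79B2 and CYP79B3, enzymes at the start of indole glucosinolate synthesis, also passed the test, with log2 folds of 1.69 and 1.102 and limma adjusted p of 0.000511 and 0.00419. Both calls were lost without the intensity trend and with ago1-45 counted as 1 sample.

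**Figure D2:**
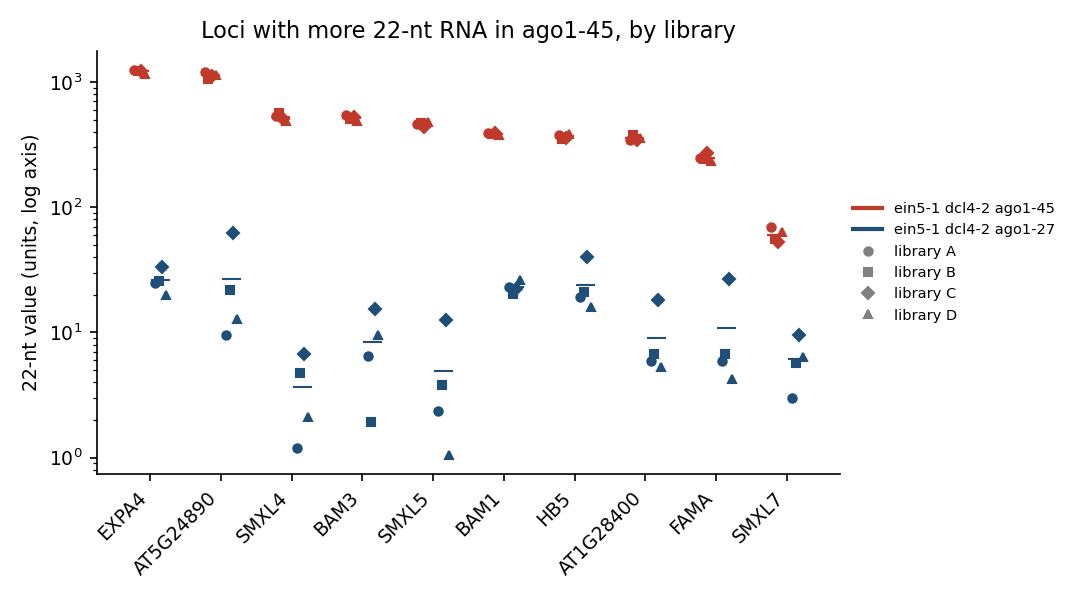
Values of libraries A to D for 10 loci with more 22-nt RNA in ein5-1 dcl4-2 ago1-45 (red) than in ein5-1 dcl4-2 ago1-27 (blue), in units on a log axis, with the mean as a bar. Most of the 10 were named for libraries that do not overlap, and SMXL4 lies at 491 to 567 units against 1.19 to 6.71.

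A group of signalling genes had far more small RNA in ago1-45 than in ago1-27. SMXL4 and SMXL5, relatives of heat shock proteins that act in phloem formation, stand out. SMXL4 had 537, 567, 509 and 491 units in libraries A to D of ago1-45 and 1.19, 4.79, 6.71 and 2.12 in those of ago1-27. Its log2 fold was 6.98 ± 0.25 (limma adjusted p = 7.68e-46). For SMXL5 the values were 460.4, 472, 438 and 475 units against 2.38, 3.83, 12.5 and 1.06, a log2 fold of 6.65 ± 0.27 (limma adjusted p = 1.67e-41). Both genes were named for libraries that do not overlap, so that separation is no further evidence. Their ago1-45 means are only 5.28% and 1.23% of the 9961 and 37470 units in ein5-1 dcl4-2.

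Of the 8 SMXL genes, 7 are members and 4 rose in ago1-45, none fell, and the median log2 fold was 1.12. SMXL7, which represses strigolactone responses, had 68.9, 55.8, 53.0 and 63.8 units in ago1-45 and 2.97, 5.74, 9.59 and 6.34 in ago1-27, with a log2 fold of 3.17 ± 0.29 (limma adjusted p = 3.57e-16). SMAX1, which represses karrikin responses, had means of 32.9 and 15.2 units and a log2 fold of 1.12 ± 0.28 (limma adjusted p = 0.0018), a call lost without the intensity trend and with ago1-45 counted as 1 sample. SMXL2, SMXL3 and SMXL6 did not pass, at means of 8.92, 5.82 and 6.29 units in ago1-45 against 4.63, 3.67 and 4.82. The summed value of the 8 genes was 1062 to 1150 units per library in ago1-45 and 36 to 67 in ago1-27 (exact two-sided permutation p = 0.0286, the smallest that 4 against 4 libraries allow).

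Receptor kinase genes followed. BAM3 encodes a CLE peptide receptor of the phloem, and its libraries A to D had 540.1, 509, 524 and 486 units in ago1-45 against 6.54, 1.91, 15.3 and 9.52 in ago1-27. Its log2 fold was 6.04 ± 0.25 (limma adjusted p = 1.25e-40). BAM1, a related receptor that acts in the shoot meristem, had 389.9, 385, 389 and 377 units against 23.2, 20.1, 22.1 and 26.4, a log2 fold of 4.02 ± 0.20 (limma adjusted p = 5.44e-34). The share of the ein5-1 dcl4-2 mean kept was 4.44% for BAM3 and 6.82% for BAM1 in ago1-45, and 0.0718% and 0.406% in ago1-27.

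Among the DCL2-dependent members, a pair of loci had a higher mean in ago1-45 than in ein5-1 dcl4-2 itself. EXPA4, a cell wall expansin, had 1245, 1219, 1225 and 1161 units in libraries A to D of ago1-45, against 24.97, 25.8, 33.6 and 20.1 in ago1-27, while the ein5-1 dcl4-2 mean was 622. The log2 fold between the alleles was 5.51 ± 0.18 (limma adjusted p = 1.45e-48). FAMA encodes a transcription factor of guard cell fate, and its values were 249, 241, 272 and 233 units against 5.95, 6.70, 26.8 and 4.23, with a mean of 105 in ein5-1 dcl4-2. Its log2 fold was 4.73 ± 0.26 (limma adjusted p = 2.2e-30). In ago1-27 other DCL2-dependent members exceeded the ein5-1 dcl4-2 mean: AT3G59940, UGT71B1, AT3G03990 and AZG1, at 145%, 136%, 122% and 109% of it. No difference of these loci from ein5-1 dcl4-2 was tested. In whole aerial parts, fewer cells of a type and less RNA per cell cannot be told apart, here and for the groups that follow.

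The other loci of this kind include a homeodomain gene and genes of little described function. AT5G24890, an NST1-like stress response gene by RefSeq, had 1203, 1053, 1122 and 1142 units in ago1-45 and 9.51, 22.0, 62.3 and 12.7 in ago1-27, a log2 fold of 5.72 ± 0.23 (limma adjusted p = 1.44e-41). AT1G28400, a GATA zinc finger gene by RefSeq, had means of 355 and 9.04 units, and HB5, a homeodomain-leucine zipper factor, of 367 and 24.1. Their log2 folds were 5.31 ± 0.24 and 3.96 ± 0.21, with limma adjusted p of 9.36e-38 and 1.32e-31. AT4G32020 had 1493, 1504, 1478 and 1472 units against 225, 95.7, 365 and 364, a log2 fold of 2.68 ± 0.19 (limma adjusted p = 3.75e-23). These genes were named for libraries that do not overlap, and the call held under every alternative tried, the count of ago1-45 as 1 sample included. Library C was the highest of ago1-27 at AT5G24890, AT1G28400, HB5 and FAMA.

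**Figure D3:**
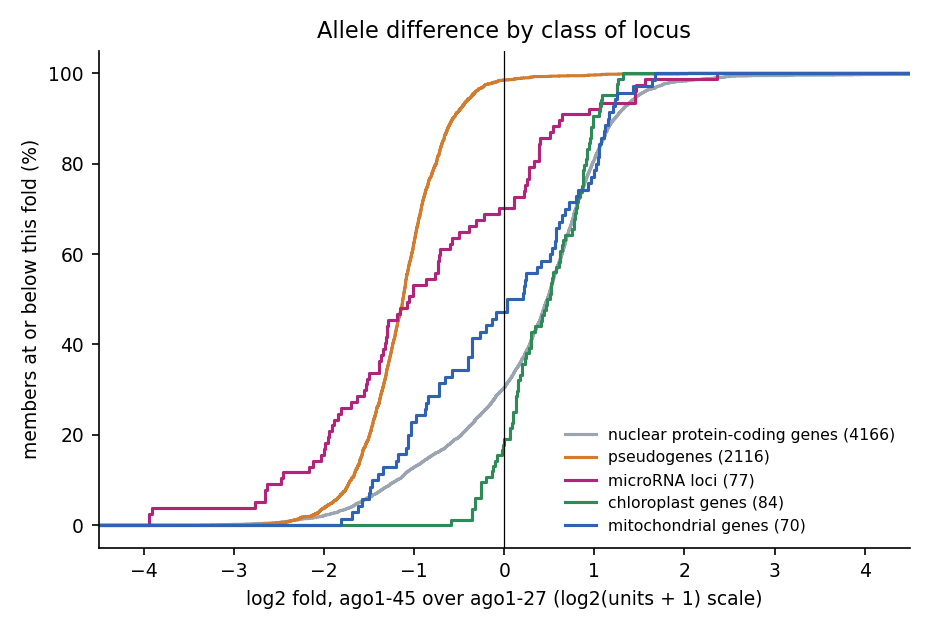
Cumulative share of members (y, percent) at or under a given log2 fold of ago1-45 over ago1-27 (x), by class of locus. The curve of 2116 pseudogenes reaches its middle at -1.12, that of 77 microRNA loci at -1.05, and those of 4166 protein-coding and 84 chloroplast genes at 0.48 and 0.49.

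Classes of locus moved in different directions. Pseudogenes, which in RefSeq include most annotated transposon remnants, made up 2116 of the members, and 1358 were lower in ago1-45 and 10 higher, with a median log2 fold of -1.12. They were lower on each scale, with 1063 lower and 9 higher after quantile normalization and 557 lower and 14 higher on the microRNA scale. Without the intensity trend 677 were lower and 4 higher, and with ago1-45 counted as 1 sample 56 and 1. Without libraries A and D of ago1-27, 786 were lower, and without B and C, 866. Over all 4829 pseudogenes with a value, members or not, the sum was 21799, 21432, 21403 and 21292 units in libraries A to D of ago1-45 and 48319, 48046, 43521 and 41057 in ago1-27 (exact two-sided permutation p = 0.0286), and the groups do not overlap. By the authors' means it is ago1-45 that stands apart: pseudogenes summed to 53310 units in Col-0, 50850 in ein5-1 dcl4-2, 45240 in ago1-27 and 21480 in ago1-45.

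The lower and higher members differ in repeated sequence, and 69.6% of the lower ones are pseudogenes. In members lower in ago1-45, a median of 31.1% of the 22-base windows of the locus occur more than once in the genome. The median was 0.905% in members higher and 2.59% in all members. Among protein-coding genes the medians were 7.1% for 515 lower and 0.85% for 819 higher members. Within the other classes it was the reverse, with 43.2% for 1358 lower and 79.8% for 10 higher pseudogenes, and 4.31% for 46 lower and 6.84% for 9 higher microRNA loci. A read from a repeated window can be counted at several loci or at none, and how the authors counted such reads is not given. The lower loci may therefore not be independent of each other. Genes with a gene on the opposite strand were 18.6% of the higher coding members and 6.21% of the lower coding members, against 18.3% of all coding members. On other scales the protein-coding counts were 1142 higher with 446 lower after quantile normalization and 1720 with 284 on the microRNA scale, and the median log2 fold stayed above 0.

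The lower loci with the largest differences in mean include transposon-related genes, pseudogenes and genes of no described function. AT3G44570, annotated as a retrotransposon open reading frame, had 163, 146, 159.8 and 171 units in libraries A to D of ago1-45 and 582, 592, 1383 and 1042 in ago1-27. Its log2 fold was -2.39 ± 0.18 (limma adjusted p = 3.15e-21), and its neighbour AT3G44580 had -2.46 ± 0.19 (limma adjusted p = 3.87e-20). AT2G15850, a pseudogene, had 68.9, 75, 68.8 and 71.6 units against 323, 381, 246 and 201, a log2 fold of -1.96 ± 0.19 (limma adjusted p = 1.98e-14). AT2G16030, a methyltransferase family gene, had 108, 104, 98.5 and 105 units against 363, 499, 338 and 306, a log2 fold of -1.82 ± 0.18 (limma adjusted p = 3.02e-14). These 4 loci were named for libraries that do not overlap, so that they do not is no further evidence, and the calls held under each alternative run. AT1G43740, AT1G43750, AT3G43730, AT2G06555 and AT5G31927 also fell, with log2 folds of -1.29, -1.26, -1.24, -1.46 and -1.11 by limma, and lost the call with ago1-45 counted as 1 sample. In the adjacent transporter genes AT1G18000 and AT1G18010 all sequence windows occur more than once in the genome. Their fall, with means of 220 and 495 units at AT1G18000, therefore cannot be assigned to either copy.

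A single locus without library values carries the most RNA of ago1-27. AT3G06435, with no described function in RefSeq, had a mean of 12260 units in ago1-27 and 5836 in ago1-45, against 6820 in ein5-1 dcl4-2 and 918 with dcl2-1 added. Its windows are repeated to 68.5%. No test could be run on it.

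**Figure D4:**
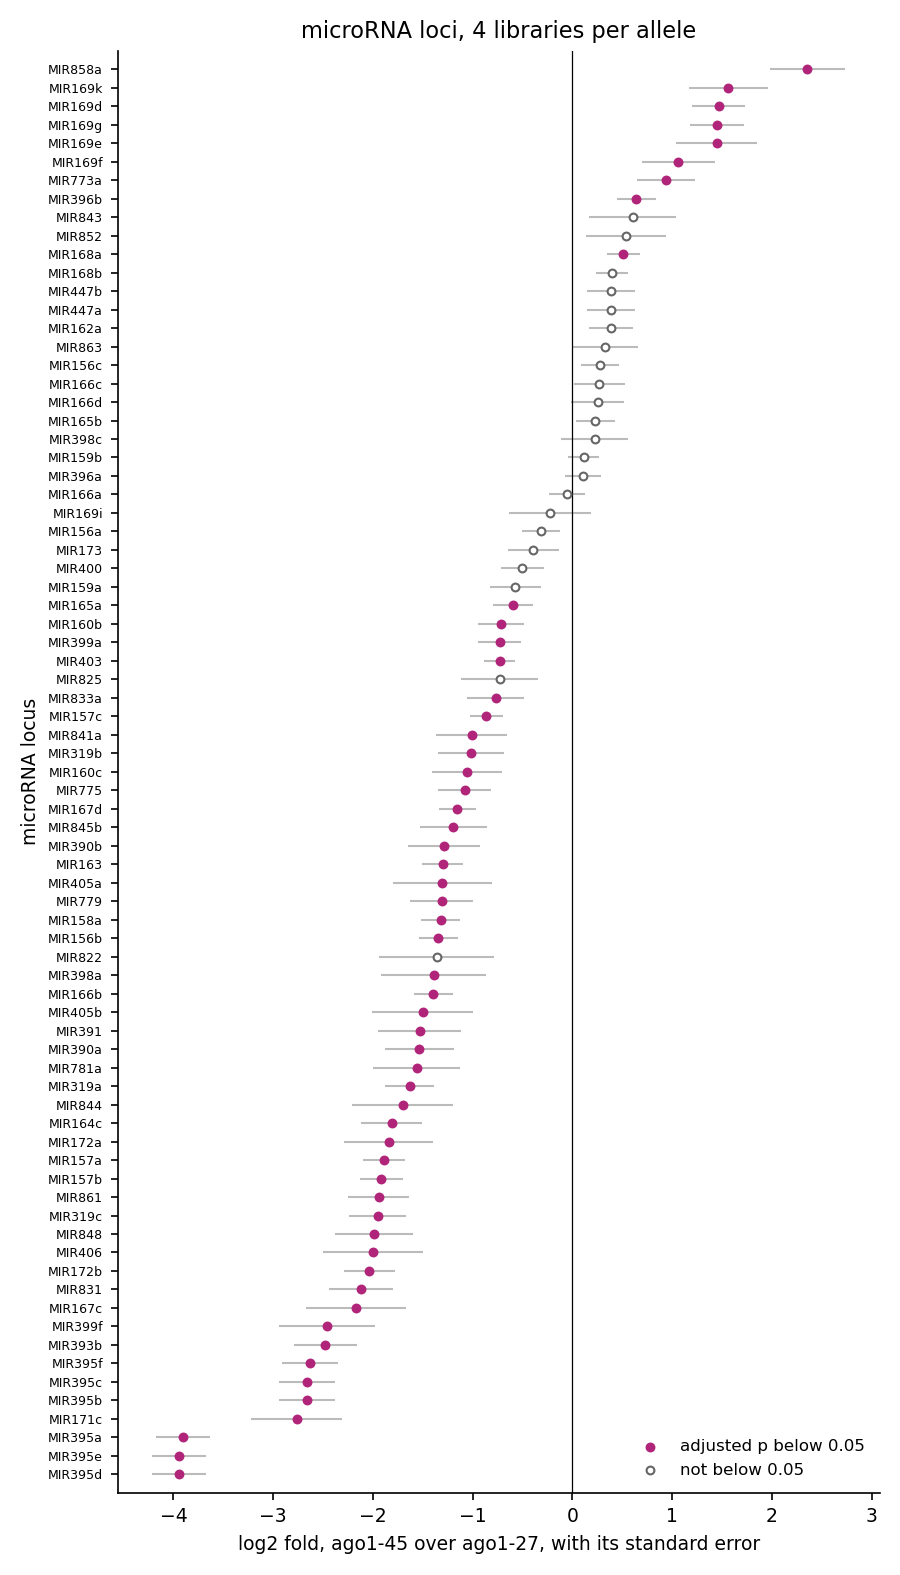
Log2 fold of ago1-45 over ago1-27 (x, with its standard error) for the 77 member microRNA loci with library values, ordered by fold. Filled points passed an adjusted p of 0.05: 9 lie to the right of 0, with MIR858a at 2.36, and 46 to the left, with MIR395a at -3.91.

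microRNA loci were mostly lower in ago1-45. Of 83 members 77 were tested, 9 were higher and 46 lower, and the median log2 fold was -1.05. When libraries were scaled to the sum of these same loci, 18 were higher and 30 lower. With ago1-45 counted as 1 sample, 15 were lower and 0 higher in limma, or 35 and 5 at an unadjusted p under 0.05. Without the intensity trend 27 were lower and 5 higher. Over the 172 microRNA loci with library values, members or not, the sum was 5915 to 6189 units per library in ago1-45 and 6222 to 10897 in ago1-27 (exact two-sided permutation p = 0.0286), with library B of ago1-27 just above the highest ago1-45 library. Loci that RefSeq gives a mature form of 22 nt were no exception: 7 of 13 tested were lower and 0 higher in limma, adjusted or not, with a median of -0.73, against 39 lower and 9 higher of 64 other loci, with a median of -1.18. At the other loci the 22-nt reads are not the annotated mature length.

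The sulfate starvation family fell most. MIR395a had 4.98, 4.36, 7.43 and 6.87 units in libraries A to D of ago1-45 and 82.0, 121, 131 and 79.3 in ago1-27, a log2 fold of -3.91 ± 0.27 (limma adjusted p = 1.18e-23). MIR395c, whose mature form has the same seed, had means of 9.32 and 60.4 units and a log2 fold of -2.66 ± 0.28 (limma adjusted p = 6.35e-13). Both were near 0 in Col-0, at 0 and 0.26 units. MIR395a, MIR395d and MIR395e have nearly equal values and share sequence, so their reads may be the same reads, and the same holds for MIR395b, MIR395c and MIR395f.

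MIR157a and MIR172b fell as well, though not every locus of the miR156 and miR157 family that represses SPL genes did: MIR156a and MIR156c had log2 folds of -0.32 and 0.28 (limma adjusted p = 0.236 and 0.325). MIR157a had 44.0, 41.9, 36.2 and 44.2 units in ago1-45 and 148, 107, 198 and 187 in ago1-27, a log2 fold of -1.89 ± 0.21 (limma adjusted p = 6.58e-12), and MIR157b shares these reads. MIR172b, which targets AP2-type factors, had means of 16.8 and 70.9 units and a log2 fold of -2.04 ± 0.26 (limma adjusted p = 5.76e-10). The libraries do not overlap at either locus. MIR403, which targets AGO2, had 826, 854, 818 and 791 units against 1166, 922, 1819 and 1769. Its log2 fold of -0.73 ± 0.15 (limma adjusted p = 0.000164) was lost on the microRNA scale, without the trend and with ago1-45 counted as 1 sample. For MIR162b, MIR850 and MIR161 library values exist in ago1-45 alone, and the authors' means were 1116 against 3700, 793 against 3810 and 422 against 1906 units. Those 3 differences have no test.

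The 9 loci that rose are 5 of the MIR169 family, which targets NF-YA factors, with MIR858a, MIR168a, MIR396b and MIR773a. MIR169d, MIR169e, MIR169f and MIR169g share a mature sequence, so part of their reads may be the same and their calls may not be independent. MIR858a, whose targets are MYB genes of flavonoid synthesis, had 14.9, 16.6, 16.7 and 21.6 units in ago1-45 and 4.16, 2.87, 0.959 and 3.17 in ago1-27, a log2 fold of 2.36 ± 0.38 (limma adjusted p = 9.61e-07). MIR169d had 66.4, 54.1, 41.8 and 36.3 units against 14.9, 21.1, 11.5 and 22.2, a log2 fold of 1.47 ± 0.26 (limma adjusted p = 1.17e-05). The libraries do not overlap at either locus, and both calls were lost with ago1-45 counted as 1 sample. MIR169d, MIR169e, MIR169g and MIR169k lie between 1.446 and 1.56, and MIR169f, at 1.06 with limma adjusted p = 0.0285, lost its call under 8 alternatives. MIR168a, which targets AGO1 itself, had means of 604 and 438 units and a log2 fold of 0.51 ± 0.17 (limma adjusted p = 0.0188) that was lost after quantile normalization, and its libraries overlap. Over AGO1 the means were 31.8 and 19.0 units, with a log2 fold of 0.72 ± 0.27 (limma adjusted p = 0.0457) that was lost under median centring. These reads check neither allele.

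MIR393b and the auxin receptors went opposite ways. MIR393b had 7.47, 3.49, 4.65 and 4.91 units in libraries A to D of ago1-45 and 29.7, 26.8, 41.2 and 32.8 in ago1-27, a log2 fold of -2.48 ± 0.32 (limma adjusted p = 9.81e-10). The TIR1 and AFB genes encode the auxin receptors, and miR393 starts siRNAs from their mRNAs at the sites shown above. All 4 are members and all 4 were higher in ago1-45, with a median log2 fold of 1.38. Under median centring 3 passed, without the intensity trend 2, and with ago1-45 counted as 1 sample 0 did, or 3 at an unadjusted p under 0.05, and all 4 folds stayed above 0. AFB2 had 225, 201, 206 and 186 units against 55.9, 61.3, 118 and 83.5, a log2 fold of 1.41 ± 0.20 (limma adjusted p = 3.08e-08). AFB3 had 88.8, 93.3, 80.8 and 81.4 units against 18.4, 29.7, 51.8 and 27.5, a log2 fold of 1.499 ± 0.24 (limma adjusted p = 5.72e-07), and it overlaps AT1G12810 on the other strand. In AFB2, AFB3 and TIR1 no ago1-27 library reaches the lowest ago1-45 library. TIR1 had means of 49.4 and 23.7 units, and AFB1 of 5.76 and 1.97, with overlapping libraries and limma adjusted p = 0.0469.

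Other microRNA targets gave few calls, and each of these was lost with ago1-45 counted as 1 sample. Of the auxin response factors on the list 5 are members, and 3 rose. ARF6, ARF8 and ARF2 had log2 folds of 1.68, 1.38 and 0.86 by limma, and ARF3 and ARF4 had 0.10 and -0.11. TCP2, a target of miR319, rose by 1.25 (limma adjusted p = 0.00039), and it was the only one of 4 GAMYB and TCP members to pass. Among 9 members of the other conserved targets 3 rose and 1 fell. GRF3, a target of miR396, APS1, a target of miR395, and SULTR2;1, another target of miR395, had 1.58, 0.77 and 1.09, and HAM3, a target of miR171, had -0.99, all at limma adjusted p under the threshold. None of 3 SPL and AP2-type members passed limma's test, 1 at an unadjusted p under 0.05, nor did PHB, the only member among the class III HD-ZIP genes, at -0.31. The 8 trans-acting siRNA loci listed were not analysed here.

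The pentatricopeptide repeat (PPR) loci of chromosome 1, which give phased siRNAs after microRNA cleavage, depended on which ago1-27 libraries were read. AT1G63080 had 39.8, 53.2, 49.2 and 46.1 units in libraries A to D of ago1-45 and 209, 19.1, 57.5 and 261 in ago1-27. AT1G63400 had 30.7, 28.8, 28.8 and 37.3 units against 166, 3.83, 20.1 and 174, and AT1G62914 had 34.8, 25.3, 25.1 and 28.5 against 165, 8.62, 15.3 and 197. At each of them libraries A and D of ago1-27 lie above all ago1-45 libraries, and library B lies under them. Of 13 member PPR loci 2 were lower and 0 higher in limma, 3 and 0 at an unadjusted p under 0.05. Without libraries A and D 1 was lower and 5 higher, and without B and C 11 were lower and 0 higher. AT1G62860, the pseudogene of the list, did not follow this split, with 30.7, 37.5, 25.1 and 25.5 units against 89.2, 63.2, 133 and 107 and a log2 fold of -1.66 ± 0.23 (limma adjusted p = 2.11e-08).

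**Figure D5:**
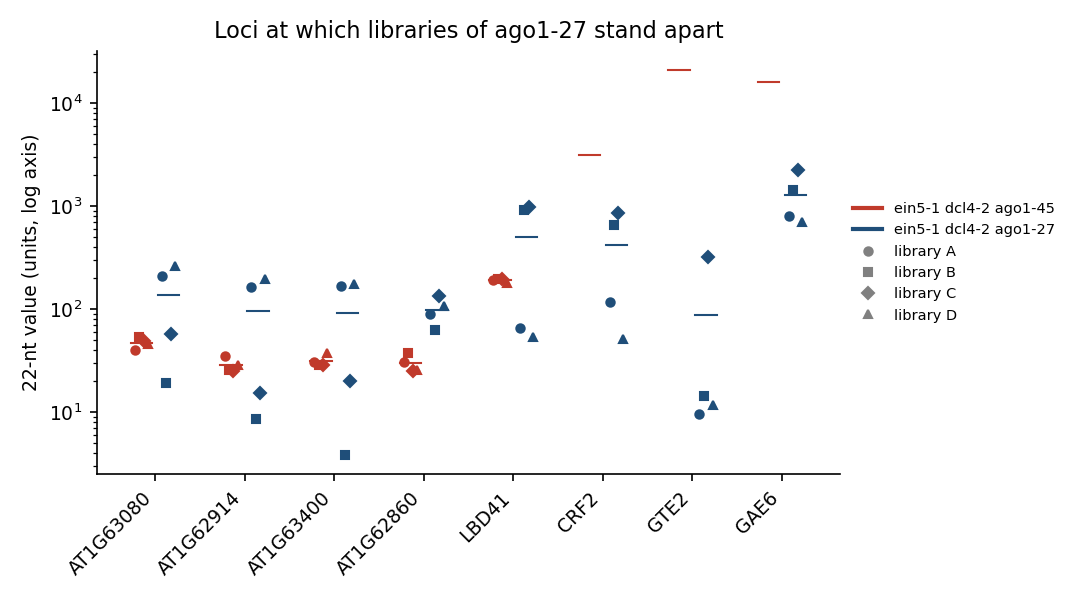
Values of libraries A to D, in units on a log axis, for 8 loci at which ein5-1 dcl4-2 ago1-27 libraries (blue) stand apart from each other, beside ein5-1 dcl4-2 ago1-45 (red). Bars are means, and a red bar without points is a locus with no ago1-45 library values. At LBD41 libraries B and C of ago1-27 reach 919 and 988 units and A and D lie at 65.4 and 53.9.

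A pair of transcription factor genes, chosen after their values were seen, showed the reverse split. LBD41, a LATERAL ORGAN BOUNDARIES domain gene, had 65.4, 919, 988 and 53.9 units in libraries A to D of ago1-27 and 191, 197, 194 and 180 in ago1-45. CRF2, a cytokinin response factor, had 116.5, 660.4, 868 and 50.8 units in ago1-27 and a mean of 3178 in ago1-45. At both, libraries B and C are the high ones. LBD41 had a log2 fold of -0.33 ± 0.33 (limma adjusted p = 0.521) in all libraries and 1.66 without B and C. The summed value of the 16 listed PPR loci was 1086, 182, 403 and 1258 units in ago1-27 and 351 to 374 in ago1-45 (exact two-sided permutation p = 0.314).

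Chloroplast and nuclear photosynthesis genes that passed the test were higher in ago1-45, but without the intensity trend nearly all of these calls were lost. Of 84 chloroplast genes tested 34 rose and 0 fell in limma, with a median log2 fold of 0.49, while after quantile normalization 37 rose and 4 fell and without the trend 2 rose and 0 fell. Their sum was 11403, 11520, 11542 and 11531 units in ago1-45 and 6259, 8202, 8635 and 8790 in ago1-27 (exact two-sided permutation p = 0.0286). Without libraries A and D of ago1-27, 21 rose and 4 fell. At an unadjusted p under 0.05, 2 fell, and with ago1-45 counted as 1 sample 0 passed the adjusted and 17 the unadjusted threshold, all upward. Mitochondrial genes were split, with 20 higher and 17 lower of 70, 23 and 12 after quantile normalization and 25 and 6 on the microRNA scale. The identical values of ATCG00840 and ATCG01300, 516 units in ago1-45 and 1723 in ago1-27, ran the other way, without a test.

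All 20 nuclear photosynthesis genes on the list are members, and 17 rose and 0 fell, with a median log2 fold of 0.73. At an unadjusted p under 0.05, 19 rose and 0 fell. After quantile normalization 10 passed, without the intensity trend 0 did, and with ago1-45 counted as 1 sample 0 passed the adjusted and 9 the unadjusted threshold. LHCB1.3, a light-harvesting protein of photosystem II, had 1532, 1510, 1475 and 1462 units in ago1-45 against 639, 820.3, 838 and 977 in ago1-27, a log2 fold of 0.88 ± 0.14 (limma adjusted p = 1.38e-06), and near-identical copies and AT1G29940, on the other strand, share its sequence. RBCS1A and RCA, the small subunit and the activase of Rubisco, had 0.69 and 0.87, both called by limma, and CA1, a carbonic anhydrase, had 0.18 ± 0.21 (limma adjusted p = 0.569). The sum of the list was 8394 to 8659 units per library in ago1-45 and 3903 to 5935 in ago1-27. By the authors' means it was 1780 units in ein5-1 dcl4-2, 6573 with dcl2-1 added to it, and 5442 in Col-0.

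These lists also check the tissue as far as 22-nt reads can. Leaf markers, 4 of 4, are members and 3 rose. None of 8 flower or 5 root markers is a member, and their sums are at most 1 and 8 units in any library. Of 3 phloem markers SUC2 is the only member, at 0.26 ± 0.32 (limma adjusted p = 0.609), and of 3 guard cell markers FAMA is the only one. Whether the make-up of cell types plays a part in these differences was not tested.

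The calls named from the remaining lists were each lost with ago1-45 counted as 1 sample. Among 9 members of nitrogen assimilation GLT1 and GLU1, both glutamate synthases, rose by 1.51 and 0.73 at limma's threshold and none fell. HSC70-1, HSP90.2 and HSP90.3, of 5 chaperone members, rose by 0.70, 0.69 and 0.96, and P5CS1 and KIN1, of 8 stress members, by 1.02 and 1.38. CHS, the first enzyme of flavonoid synthesis, was the only anthocyanin member and rose by 1.103. AGO1 was the only one of 4 silencing and decay members to pass, beside DCL1, AGO2 and XRN3. In the list of siRNA sources GAE1 rose by 1.04 and GT18 fell, with a log2 fold of -1.09 (limma adjusted p = 0.00161).

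The same allele pair was sequenced in ski2-2 dcl4-2, where the RNA helicase of the cytoplasmic exosome is lost in place of EIN5, with 4 libraries of ago1-45 and 3 of ago1-27. There 1828 of the members were higher and 2088 lower by limma, against 21.1% and 24% of the 11684 genes tested. Of the 892 members higher in the ein5-1 background 822 were tested here, and 2 were lower. Higher here too were 575, which is 64.5% of the 892 and 31.5% of those higher here. Of the 1950 lower members 1886 were tested here, and 19 were higher. Lower here too were 1435, which is 73.6% of the 1950 and 68.7% of those lower here. Among them were 1051 pseudogenes and 39 microRNA loci, MIR393b and MIR395a included, with log2 folds of -2.48 and -3.02 here. Pseudogenes summed to 29960 units in ski2-2 dcl4-2 ago1-45 and 56940 in ski2-2 dcl4-2 ago1-27 by the authors' means.

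The siRNA loci differed between the backgrounds. In the test of the difference itself, 75 members had a log2 fold further towards ago1-45 in the ein5-1 background and 371 further towards ago1-27, against 0.599% and 2.73%, or 3.33% in either direction, of the 14528 genes tested. These counts were 31 and 32 without the intensity trend, and the second was 136 under median centring. SMXL4, SMXL5, AT5G24890, BAM3 and AT1G28400 had the largest such differences, of 7.54, 6.65, 5.73, 5.51 and 5.47 on the log2 scale, at limma adjusted p of at most 1.55e-15. In ski2-2 dcl4-2 these 5 genes were near the floor under both alleles, SMXL4 at 0.276 and 0.813 units and BAM3 at 2.74 and 1.71. GTE7 was also low there, at 9.77 units in ago1-45 and 3.79 in ago1-27. In the other direction GER3, a germin, RD29A, a stress gene, GRP7, an RNA-binding protein of the clock, and NYC1, a chlorophyll b reductase, had differences of -3.79, -3.61, -3.61 and -3.51. In the ein5-1 background none of these 4 was called by limma, with log2 folds of -0.36, 0.80, -0.18 and -0.50, and in ski2-2 dcl4-2 they were 3.43, 4.41, 3.42 and 3.01. The fifth, AT4G36460, was at 0 in 3 of 4 ago1-45 libraries and at 12.5, 28.7, 8.63 and 5.29 units in ago1-27. All 20 photosynthesis genes rose in ski2-2 dcl4-2, and 16 had a smaller fold in the ein5-1 background. Of the 13 PPR loci 9 were higher and 1 lower in ski2-2 dcl4-2.

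The threshold of 5 units cuts through a dense range of values. Just inside it lie LINC3, AT5G12400, CYSB and AT5G57120, whose ago1-45 means are at most 5.002 units. Just outside lie AT1G02020, RWA3, AT5G59670 and AT2G24870, each at 4.998 units in ago1-27.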

How the data were processed

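Small RNA of 8 libraries, 4 per allele, was compared, with 7 libraries of the ski2-2 dcl4-2 background beside them. Per the submitters' processing notes the tools were Bowtie 1.2.2 and SAMtools 1.9 and the build was TAIR10. How reads of several loci, or of either strand, were counted is not given in the sources used here. The deposited table holds the authors' mean signal of 22-nt reads per gene and genotype, named TPM per the file headers. The authors also deposited log2 folds and p-values of 8 other comparisons, from DESeq2 per the submitters' processing notes, which were not used.

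Each mean was resolved into whole reads of each library times that library's step. On simulated means none of the resolved values was wrong. The simulated libraries lay closer together than those of ago1-27 at loci such as LBD41, so the simulation does not cover such loci. Loci too high to resolve hold 49.06% of the ago1-45 signal and 21.97% of the ago1-27 signal. The test was limma 3.58.1 (R 4.3.3) on log2(units + 1) with an intensity trend, for genes averaging 1 unit or more over the libraries compared, and the added unit understates folds of low genes. In simulated data of 15745 genes for the allele comparison in ein5-1 dcl4-2 it called 100% of 4-fold rises, 58.8% of 4-fold falls and 14.7% of 2-fold rises. The simulation gave both alleles the same spread, which the real libraries do not have, so these rates may not hold for them. Library sums were compared by exact permutation. Sequences, classes and positions come from RefSeq TAIR10.1, which matched 6372 members, and organelle genes are given as IDs.

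Genes named are the 12 higher and 12 lower with the largest differences in mean among called members with a log2 fold of at least 1 and separate libraries, the 6 and 6 without library values, the 4 on each side of the threshold, the 5 and 5 largest differences between backgrounds, and list members. The text gives a part of them, and LBD41 and CRF2 were added after their values were seen. The members and lists were chosen with earlier results of these data known. Alternatives varied the added unit, filter, scale, trend, recovery tolerance and libraries.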

Additional observations from a re-analysis of the deposited data

Results flagged for a closer look

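Among 215 groups of 4 libraries, 15 hold a library that stands far from the other 3, where chance alone gives about 1 in 20. In 10 of these loci it is library C of ein5-1 dcl4-2 ago1-27, high each time: GTE2 at 317 units, MIR156a at 273.2, AT5G10540 at 132, HAM3 at 95.87, ARF4 at 69.03, FAMA at 26.8, AT1G28400 at 18.2, MIR395b and MIR395c at 78.6 each and MIR395f at 77.66. GTE2 and AT5G10540 overlap and the MIR395 loci may share reads, so these values are not independent. CYP79B2 was high in library D of ago1-27, at 18.0 units, and RD29A and SUC2 were low in library A, at 4.16 and 7.135. KIN1 was high in library D of ago1-45, at 12.76. AT4G36460 was at 0.929 units in library C of ago1-45 and at 0 in the others, so that value rests on 1 read.

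Among the named genes, 39, some of them given above, had an allele difference that differed between ein5-1 dcl4-2 and ski2-2 dcl4-2 by limma's interaction term, given here as the log2 difference of the first minus the second. It was above 0 at SMXL4 (7.54), SMXL5 (6.65), AT5G24890 (5.73), BAM3 (5.51), AT1G28400 (5.47), EXPA4 (5.12), FAMA (3.66), SMXL7 (3.34), HB5 (2.85), BAM1 (2.27), DGAT3 (1.57), NIA1 (1.5) and AT4G32020 (1.47). The microRNA loci MIR169g (1.73), MIR169d (1.7), MIR172b (1.35), MIR168a (1.03) and MIR396b (0.91) were above 0 and MIR319c (-1.94) was under it. Under 0 were the photosynthesis genes CA1 (-1.55), RBCS1A (-1.28) and LHCB1.3 (-0.87), the organelle loci ATMG00280 (-0.73) and ATCG00340 (-0.58) and the PPR loci AT1G62914 (-2.43), AT1G63080 (-2.37) and AT1G63400 (-2.17). The others under 0 were GER3 (-3.79), RD29A (-3.61), GRP7 (-3.61), NYC1 (-3.51), AT4G36460 (-3.39), GT18 (-2.22), PHB (-2.13), HAM3 (-1.42), AT2G15850 (-1.4), AT2G16030 (-1.13), GLU1 (-0.98) and AT2G06555 (-0.78). NIA1 was lower in ago1-45 in ski2-2 dcl4-2 and not called in ein5-1 dcl4-2, and MIR168a was called in opposite directions.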

How the results depend on the processing

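Counts of members moved most with the choices that set the spread and the scale. For 892 higher members in ein5-1 dcl4-2 the count was 1824 on the microRNA scale, 273 without the intensity trend and 33 with ago1-45 counted as 1 sample. For 1950 lower members it was 889, 1025 and 144, and 1146 without libraries A and D of ago1-27. In ski2-2 dcl4-2 the higher count was 1171 with a filter at a mean of 5 units and the lower count 661 on the microRNA scale. Of the differences between backgrounds, higher members numbered 31 without the trend, and lower members 223 without a filter, 136 under median centring and 32 without the trend. With each library left out in turn, the members higher numbered 601 to 968 and lower 1500 to 1820 in ein5-1 dcl4-2, higher 1404 to 1818 and lower 1554 to 2032 in ski2-2 dcl4-2, and 54 to 83 higher and 242 to 392 lower in the difference between backgrounds, with 242 without library B of ski2-2 dcl4-2 ago1-27. Differences of library sums kept their sign: -25147 to -22726 units for pseudogenes, -3244 to -1685 for microRNA loci, 2957 to 3800 for chloroplast genes, 17420 to 25128 for protein-coding genes, 7360 to 9189 for DCL2-dependent loci and 3217 to 3895 for photosynthesis genes; 3 against 4 libraries cannot reach the threshold. The sum over all genes had no call and ran from -4724 to 3358. Without libraries A and D of ago1-27 the log2 folds of AT1G63080, AT1G62914 and AT1G63400 turned to 0.48, 1.22 and 1.67, and without B and C that of LBD41 turned to 1.66. Of 80 named genes called in ein5-1 dcl4-2, 28 kept the call under every alternative run, 38 lost it without the trend and 52 with ago1-45 counted as 1 sample. Alternatives that leave out those libraries, weight libraries or count ago1-45 as 1 sample were chosen after seeing the data. The causes of these moves were not tested. No paired analysis was possible because the library values, recovered from means, carry no replicate number. Depth limits the low members: 1 read is worth up to 1.06 units, against a threshold of 5.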

Other observations

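A few siRNA sources of ein5-1 dcl4-2, chosen after their values were seen, had little 22-nt RNA under either allele. MYB28, a regulator of aliphatic glucosinolate synthesis, fell from 22790 units to 120.4 in ago1-45 and 17.7 in ago1-27, with a log2 fold between alleles of 2.74 (limma adjusted p = 7.66e-18). BRI1, the brassinosteroid receptor, fell from 17170 to 145 and 36.8 units, with a log2 fold of 1.98 (limma adjusted p = 1.28e-12). ADC2, an arginine decarboxylase of polyamine synthesis, fell from 17100 units to 29.6 and 32.8, with a log2 fold of -0.05 (limma adjusted p = 0.913).

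The neighbours AT3G44570 and AT3G44580 also vary outside the allele comparison. By the authors' means AT3G44570 had 827 units in Col-0, 5.86 in ein5-1, 372 in ein5-1 dcl4-2 and 10.9 in ski2-2 dcl4-2 dcl2-1, and AT3G44580 had 485, 2.37, 199 and 6.22. These differences were not tested.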
